A study of Mus musculus with 12 samples.

Results

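The 41 interferon-stimulated genes described here are genes whose transcription rises when cells receive interferon, and they were taken by symbol from a fixed list. All 41 were found among the 24415 genes of the count table, and all 41 passed the filter on low counts that left 15283 genes for testing. Whole bone marrow was taken on day 7 after a sham procedure or a flame burn from C57BL/6J females aged 8 weeks, and its RNA was sequenced in 12 libraries. Antibody was given from 12 h before the procedure and then daily until harvest. The sham group (replicates 1 to 4) and the burn group (replicates 5 to 8) received an isotype antibody, a control with no chosen target. The anti-G-CSF group (replicates 9 to 12) was burned and received an antibody against granulocyte colony-stimulating factor, the cytokine that drives neutrophil production. Every animal therefore received an antibody, and sham mice with anti-G-CSF were not analysed here. Whether the 4 libraries of a group stand for 4 mice is not stated in the labels, so the spread behind each p-value may be technical.

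Type I interferons bind the IFNAR receptor, whose kinases JAK1 and TYK2 activate STAT2. With IRF9 it belongs to a complex that binds the interferon-stimulated response element in promoters, while interferon-gamma acts at the gamma-activated site. The induced proteins sense viral nucleic acid, degrade or edit RNA, attach the ubiquitin-like protein ISG15, and coat vacuoles that hold microbes. In mice of the C57BL/6J strain the Mx1 and Mx2 genes are known to carry alleles that make no working protein, so their values describe RNA only.

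The promoters of 7 members are printed because their expression is described below and they differ in the interferon-stimulated response element. Each sequence is the 250 bases before the RefSeq start of the gene in GRCm38.p6, read 5′ to 3′ along the gene's strand. Capitals mark the core GAAANNGAAA on either strand, so a match on the other strand reads as the reverse complement, and overlapping matches run together. The members with matches are Isg15 with 3, Ifit3, Irgm1, Oas1a and Ddx60 with 2 each and Rsad2 with 1, and Samd9l holds none in this window.
Isg15 promoter, chr4:156200819-156201068, minus strand: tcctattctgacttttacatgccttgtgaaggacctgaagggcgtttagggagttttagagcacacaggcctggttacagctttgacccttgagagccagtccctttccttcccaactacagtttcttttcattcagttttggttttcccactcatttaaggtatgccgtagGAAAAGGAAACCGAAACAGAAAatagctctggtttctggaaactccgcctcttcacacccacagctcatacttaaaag
Rsad2 promoter, chr12:26456453-26456702, minus strand: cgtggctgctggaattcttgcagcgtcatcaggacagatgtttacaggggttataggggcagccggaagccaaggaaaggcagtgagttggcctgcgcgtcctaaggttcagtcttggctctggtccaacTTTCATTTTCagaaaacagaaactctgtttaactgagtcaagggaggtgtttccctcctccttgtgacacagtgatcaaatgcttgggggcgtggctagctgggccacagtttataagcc
Ifit3 promoter, chr19:34583279-34583528, plus strand: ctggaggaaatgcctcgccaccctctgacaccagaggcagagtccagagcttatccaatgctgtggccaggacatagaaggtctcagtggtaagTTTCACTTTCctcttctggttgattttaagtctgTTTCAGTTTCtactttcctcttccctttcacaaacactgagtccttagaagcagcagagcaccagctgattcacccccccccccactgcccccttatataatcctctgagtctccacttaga
Irgm1 promoter, chr11:48871421-48871670, minus strand: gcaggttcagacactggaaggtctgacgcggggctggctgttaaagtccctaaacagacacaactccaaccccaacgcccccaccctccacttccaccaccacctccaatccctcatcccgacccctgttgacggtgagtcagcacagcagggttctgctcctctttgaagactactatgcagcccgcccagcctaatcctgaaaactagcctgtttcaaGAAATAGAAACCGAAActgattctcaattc
Oas1a promoter, chr5:120907526-120907775, minus strand: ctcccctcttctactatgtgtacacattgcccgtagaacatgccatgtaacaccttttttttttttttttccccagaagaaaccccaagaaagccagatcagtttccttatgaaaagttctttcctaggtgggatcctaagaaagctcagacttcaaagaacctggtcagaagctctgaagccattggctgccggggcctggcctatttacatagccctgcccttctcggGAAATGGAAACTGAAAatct
Ddx60 promoter, chr8:61927837-61928086, plus strand: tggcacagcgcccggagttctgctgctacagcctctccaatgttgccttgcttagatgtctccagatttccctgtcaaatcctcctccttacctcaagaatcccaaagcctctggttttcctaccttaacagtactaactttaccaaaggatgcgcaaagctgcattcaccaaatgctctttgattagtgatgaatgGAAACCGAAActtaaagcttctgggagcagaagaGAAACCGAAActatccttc
Samd9l promoter, chr6:3399572-3399821, minus strand: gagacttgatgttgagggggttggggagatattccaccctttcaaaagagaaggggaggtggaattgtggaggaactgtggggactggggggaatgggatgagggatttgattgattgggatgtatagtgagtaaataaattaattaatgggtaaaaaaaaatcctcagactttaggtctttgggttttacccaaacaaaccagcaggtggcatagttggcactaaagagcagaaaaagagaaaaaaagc

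RefSeq windows were found for 32 of the 41 members. The core occurred in the windows of 16 of these 32 genes (50%), against 936 of all 27025 genes with a window (3.46%). The gamma-activated site, searched as TTCNNNGAA on either strand, occurred in 7 of the 32 members (21.9%) and in 8.13% of all genes with a window. Of the 7 members that fell after burn, 4 held the core, and of the 23 members with a window that did not pass the burn test, 11 did. Of the 3 members that rose after burn, 2 had a window and 1 of those held the core. Of the 9 members that fell with the antibody, 7 had a window and 4 of those held the core. The core was also held by 2 of the 3 members that rose with the antibody and by 10 of the 22 with a window that did not pass. A match describes letters in the window and does not show that a factor binds there.

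Total counts ran from 18780399 to 25708084 per library, and the lowest count of any member in any library was 38 reads (Ifi44). Levels are given as CPM, counts scaled to the library's size after TMM normalisation. Markers of the marrow lineages were detected in all libraries, as were transcripts typical of brain, heart and lens. The 18 brain genes summed to 829 to 955 CPM in the sham group, 778 to 1394 in the burn group and 1206 to 2233 in the anti-G-CSF group, with none of them at 0. Replicate 1 among the sham libraries, replicate 6 among the burn libraries and replicate 12 among the anti-G-CSF libraries stood apart in the member genes, and after each comparison the members whose call changes without 1 of them are given without it. In whole marrow, fewer cells of a type and less RNA per cell cannot be told apart.

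Per kilobase of merged exons, Rsad2 was the most abundant member in the sham group at 162 CPM per kb, followed by Isg15 at 141, Bst2 at 73.6 and Samd9l at 54.1. Ifi44 was the least abundant at 0.702 CPM per kb, and the median member stood at 12.3. The members together held 3259 ± 450 CPM in the sham group, 2991 ± 372 in the burn group and 3234 ± 364 in the anti-G-CSF group (mean ± SD, n = 4 libraries here and below). Rsad2 alone made up 21.6% of that sum in the sham group, 14.03% in the burn group and 29.0% in the anti-G-CSF group. Without Rsad2 the sums were 2555 ± 361, 2574 ± 362 and 2288 ± 179 CPM, and the ranges of all 3 groups overlapped.

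A minority of the members differed after burn, in both directions. Compared with sham, 7 members fell (Rsad2, Ifit3, Isg15, Ifi47, Irgm1, Herc6 and Ifi35), 3 rose (Oas2, Samd9l and Oas1a) and 31 did not pass. These 10 are 24.4% of the members, against 21% of all genes tested that were called in either direction, 11.1% higher and 9.92% lower. The median log2 fold change was -0.05 over the members and -0.00 over all genes. Sham and burn values did not overlap for 4 members (Rsad2, Isg15, Oas2 and Samd9l), or 9.76%, against 24.7% of all genes. Gene tests are edgeR quasi-likelihood tests with Benjamini-Hochberg adjustment over all genes tested, and fold changes are log2 with their SE.

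Rsad2 encodes viperin, a radical-SAM enzyme that makes a chain-terminating nucleotide, and it lies at chr12:26442743-26456452 in mm10. Its level was 820.3, 619.9, 729 and 645 CPM in the sham libraries, 333, 423, 428 and 482 in the burn libraries and 1263, 897, 885 and 739.7 in the anti-G-CSF libraries. All burn libraries lay below all sham libraries, and all anti-G-CSF libraries lay above all burn libraries. The log2 fold change after burn was -0.76 ± 0.15, adjusted p = 0.00183. Cmpk2, a mitochondrial nucleotide kinase whose gene lies 12762 bases from Rsad2 on the other strand, averaged 126 ± 22.6 CPM in sham and 127 ± 19.2 in burn libraries. It did not pass the test (log2 fold change 0.01 ± 0.12, adjusted p = 0.969).

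Isg15, at chr4:156199424-156200818, encodes the ubiquitin-like protein that is attached to other proteins. Its level was 144, 94.2, 96.6 and 91.4 CPM in the sham libraries, 50.01, 79.8, 56.5 and 65.2 in the burn libraries and 194, 126, 124 and 106 in the anti-G-CSF libraries. Replicate 1 was the highest sham library, yet every burn library lay below the lowest sham library. Isg15 fell after burn (log2 fold change -0.76 ± 0.21, adjusted p = 0.0226). Without replicate 1 the change was -0.58 and the adjusted p was 0.0648. The call was also lost without replicate 5 or 7, with no filter and with the brain genes' mean as a covariate. Herc6, the main ISG15 ligase of mice, measured 59.01, 39.6, 45.8 and 43.2 CPM in the sham libraries, 32.1, 37.2, 34.2 and 40.1 in the burn libraries and 63.8, 52.8, 47.7 and 42.5 in the anti-G-CSF libraries. Its sham and burn ranges overlapped only at replicates 2 and 8, and it fell after burn (log2 fold change -0.39 ± 0.13, adjusted p = 0.0445). Usp18, which removes ISG15 and dampens the type I receptor, averaged 25.4 ± 7.43 and 20.2 ± 5.24 CPM and did not pass (log2 fold change -0.34 ± 0.21, adjusted p = 0.310).

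Among the IFIT genes, whose proteins bind viral RNA, Ifit3 showed the largest fold change of any member after burn. It measured 20.9, 9.49, 8.93 and 8.56 CPM in the sham libraries, 3.98, 9.49, 3.86 and 5.01 in the burn libraries and 4.94, 6.79, 5.30 and 6.07 in the anti-G-CSF libraries. Replicate 1 was above 20 CPM while the other sham libraries were below 10, and replicate 6 was the only burn library inside the sham range. The log2 fold change was -1.11 ± 0.32, adjusted p = 0.0216, and without replicate 1 it was -0.69 with an adjusted p of 0.0893. The near-identical copy Ifit3b could share its reads, so the level of Ifit3 is uncertain. Ifit1 (-0.65 ± 0.24, adjusted p = 0.0810) and Ifit2 (-0.30 ± 0.14, adjusted p = 0.158) did not pass.

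The immunity-related GTPases, which act on vacuoles that hold microbes, had 2 of 4 members that fell after burn, beside 9.92% of all genes tested. Irgm1, a regulator of this family at chr11:48865249-48871346, measured 90.3, 68.9, 79.3 and 65.1 CPM in the sham libraries, 47.7, 71.2, 50.6 and 49.2 in the burn libraries and 84.5, 74.1, 65.1 and 56.2 in the anti-G-CSF libraries. Replicate 6 was the only burn library inside the sham range. Irgm1 fell (log2 fold change -0.48 ± 0.15, adjusted p = 0.0336), and Ifi47 fell with it (-0.43 ± 0.13, adjusted p = 0.0230). The values of Ifi47 were 88.8, 63.3, 57.7 and 63.2 CPM in the sham libraries, 44.6, 63.97, 45.98 and 48.4 in the burn libraries and 58.8, 56.6, 55.1 and 56.2 in the anti-G-CSF libraries. Again replicate 6 was the only burn library inside the sham range. With 1 of the 12 libraries left out in turn, the call of Irgm1 held in 7 fits and that of Ifi47 in 8. Irgm2 (-0.05 ± 0.15, adjusted p = 0.868) and Igtp (-0.25 ± 0.11, adjusted p = 0.125) did not pass. Ifi35, an interferon-induced leucine-zipper protein, fell from 45.8 ± 4.06 to 37.4 ± 5.65 CPM (-0.30 ± 0.10, adjusted p = 0.0459), and its libraries read 50.8, 46.5, 44.9 and 41 CPM in the sham libraries, 37.2, 44.7, 31 and 36.4 in the burn libraries and 40.8, 43.9, 39.01 and 38.7 in the anti-G-CSF libraries. Only replicate 6 of its burn libraries reached the sham range.

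The 3 members that rose after burn included 2 oligoadenylate synthetases, enzymes whose product activates RNase L. Oas2, at chr5:120730333-120749848, measured 44.1, 36.1, 55.3 and 38.97 CPM in the sham libraries, 64.8, 104, 65.9 and 80.3 in the burn libraries and 33.2, 44.2, 38.8 and 25.1 in the anti-G-CSF libraries. Every burn library lay above every sham and every anti-G-CSF library, and replicate 6 was the highest. Oas2 rose after burn by a log2 fold change of 0.85 ± 0.19, adjusted p = 0.00720. Oas1a measured 28.5, 19.4, 17.3 and 15.1 CPM in the sham libraries, 31.4, 39.1, 22.2 and 26.8 in the burn libraries and 16.8, 17.5, 20.7 and 15.97 in the anti-G-CSF libraries. Its sham and burn ranges overlapped because replicate 1 lay above 2 of the burn libraries, and it rose after burn (log2 fold change 0.57 ± 0.19, adjusted p = 0.0463). This call held in 6 of 19 alternatives and in 2 of the 12 with a library left out. Without replicate 1 it was 0.79, adjusted p = 0.00354, and without replicate 6 it was 0.41, adjusted p = 0.119. The near-identical Oas1g could share its reads. Oas3 (0.29 ± 0.12, adjusted p = 0.0936) and the OAS-like genes Oasl1 (-0.60 ± 0.22, adjusted p = 0.0704) and Oasl2 (0.16 ± 0.20, adjusted p = 0.650) did not pass.

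Samd9l, an antiviral and growth-restraining protein at chr6:3372258-3399571, was the third member to rise. It measured 335, 269, 300.2 and 270.2 CPM in the sham libraries, 405, 425, 364 and 353 in the burn libraries and 219, 282, 277 and 209.5 in the anti-G-CSF libraries. Every burn library was above every library of the other groups. The log2 fold change after burn was 0.40 ± 0.11, adjusted p = 0.0113. It kept its call without replicate 1 (0.47, adjusted p = 0.00688) and without replicate 6 (0.35, adjusted p = 0.0356), and lost it without replicate 2 or replicate 4.

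None of the 7 genes of nucleic acid sensing and editing passed the burn test by edgeR or by the DESeq2 Wald test, and 1 had an unadjusted p under 0.05 by edgeR. They include the RNA sensors Ddx58 (RIG-I; 0.12 ± 0.10, adjusted p = 0.436) and Ifih1 (MDA5; -0.05 ± 0.14, adjusted p = 0.865), the kinase PKR gene Eif2ak2 (0.05 ± 0.10, adjusted p = 0.787) and Zbp1, a sensor of Z-form nucleic acid (0.47 ± 0.20, adjusted p = 0.109). Adar, which edits adenosines in RNA, measured 157, 139, 163 and 144 CPM in the sham libraries, 142, 164, 134 and 149 in the burn libraries and 143, 145, 153 and 126 in the anti-G-CSF libraries. Its groups overlapped throughout (log2 fold change -0.04 ± 0.08, adjusted p = 0.812). Irf7, the factor that drives interferon genes, measured 151, 103, 121 and 104 CPM in the sham libraries, 71.2, 111, 72.9 and 87.7 in the burn libraries and 115, 112, 106 and 79.7 in the anti-G-CSF libraries. Replicates 5, 7 and 8 were below every sham library and replicate 6 was not. It missed the threshold (log2 fold change -0.49 ± 0.16, adjusted p = 0.0506), and without replicate 6 it was -0.64 with an adjusted p of 0.00523.

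Stat2, a subunit of the complex that binds the response element, measured 95.5, 84.3, 97.8 and 94.1 CPM in the sham libraries, 91.4, 102, 87.96 and 84.03 in the burn libraries and 87.1, 95.4, 77.4 and 74.5 in the anti-G-CSF libraries. Its groups overlapped, and the log2 fold change after burn was -0.02 ± 0.09, adjusted p = 0.887. Gbp2, a guanylate-binding protein that attacks microbial vacuoles, measured 34.02, 17.7, 18.3 and 27.8 CPM in the sham libraries, 26.1, 28.7, 20.8 and 22.9 in the burn libraries and 19.1, 15.4, 16.5 and 19.98 in the anti-G-CSF libraries. Sham libraries alone spanned most of the range of all 12 libraries (log2 fold change after burn 0.01 ± 0.18, adjusted p = 0.981). The ADP-ribosylation genes Parp9 and Parp14 with Dtx3l, the ligase that pairs with PARP9, lay between -0.23 and 0.11 and did not pass. Parp9 and Dtx3l overlap by 558 bases on opposite strands, and the strand setting of the counting is not given in the sources used here.

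**Figure D1:**
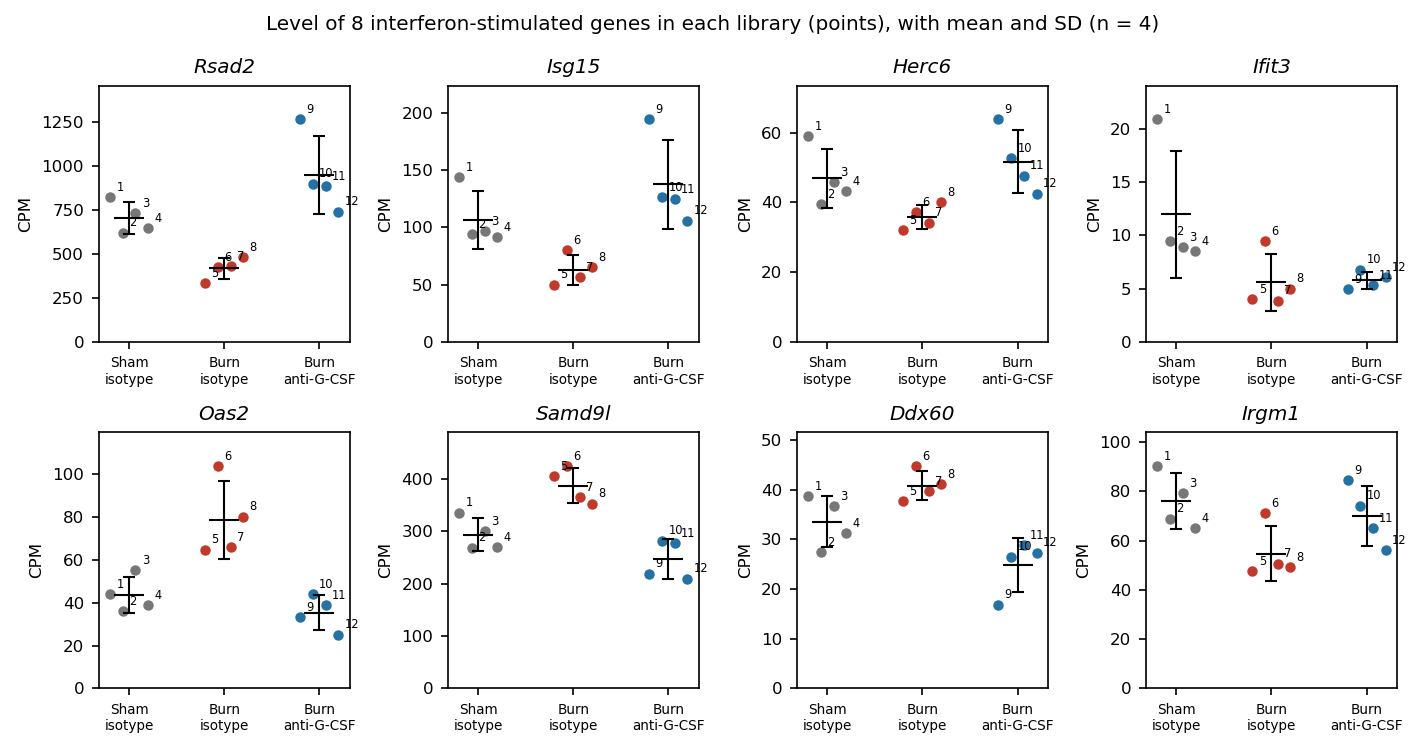
Level of 8 members in CPM (vertical axes start at 0) in each library of the sham, burn and anti-G-CSF groups, with the mean and SD of 4 libraries. Rsad2 and Isg15 are lowest in the burn group, while Oas2 and Samd9l are highest there.

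Each of the 8 sham or burn libraries, when left out, removed between 2 and 7 of the 10 burn calls. Without replicate 1, 5 members rose and 1 fell. Besides Isg15 and Ifit3, given above, the calls of Herc6 (-0.26, adjusted p = 0.172), Ifi47 (-0.28, adjusted p = 0.0858), Irgm1 (-0.38, adjusted p = 0.109) and Ifi35 (-0.24, adjusted p = 0.144) were lost, and Zbp1 (0.70, adjusted p = 0.00740) and Oas3 (0.43, adjusted p = 0.00709) passed as higher. Without replicate 6, 2 rose and 14 fell. Ifit1 (-0.89, adjusted p = 0.00664), Ifit2 (-0.42, adjusted p = 0.0386), Oasl1 (-0.86, adjusted p = 0.00475), Bst2 (-0.61, adjusted p = 0.00332), Ifi44 (-1.01, adjusted p = 0.0213), Parp9 (-0.31, adjusted p = 0.0320) and Igtp (-0.33, adjusted p = 0.0440) then passed as lower with Irf7, and Herc6 (-0.41, adjusted p = 0.0591) and Oas1a did not pass. Without replicate 12, which the shared estimate of spread uses, Irf7 passed (-0.50, adjusted p = 0.0239) and Oas1a did not (0.56, adjusted p = 0.0590). For the counts, 1 fell without replicate 5 or 7, 3 without replicate 8 and 4 without replicate 3, and 1 rose without replicate 2 or 4. With the brain genes' mean as a covariate 7 rose and 5 fell, and Isg15, Herc6 and Ifi35 lost their calls. Rsad2 and Oas2 kept their calls in all 19 alternatives run for burn against sham.

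With anti-G-CSF antibody after burn, 3 members were higher than with isotype antibody (Rsad2, Isg15 and Herc6) and 9 were lower (Oas2, Samd9l, Ddx60, Trim30a, Ddx58, Oas1a, Zbp1, Oas3 and Oasl2). The other 29 did not pass. These 12 are 29.3% of the members, against 34.6% of all genes tested, 17.7% higher and 16.9% lower. The median log2 fold change was -0.05 over the members and 0.08 over all genes. The groups did not overlap for 13 members, the 12 called and Gbp2, or 31.7%, against 28.9% of all genes. This comparison and the previous one share the burn libraries, so values of a gene in the 2 comparisons are not independent of each other.

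The 3 members that were higher with anti-G-CSF are the 3 whose values are given above as viperin, ISG15 and its ligase. Rsad2 rose by a log2 fold change of 1.18 ± 0.15, adjusted p = 2.26e-05, the smallest p of any member in the 3 comparisons. Isg15 rose as well (log2 fold change 1.13 ± 0.21, adjusted p = 0.00147), as did Herc6 (0.53 ± 0.13, adjusted p = 0.00531). In each of the 3 genes replicate 9 was the highest of all 12 libraries, and the lowest anti-G-CSF library still lay above the highest burn library. All 3 calls held without replicate 9 and in each of the other 19 alternatives. Usp18 did not pass (0.26 ± 0.21, adjusted p = 0.363), and neither did Cmpk2, the neighbour of Rsad2 (-0.16 ± 0.12, adjusted p = 0.284).

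The oligoadenylate synthetase family had 4 of its 5 members lower with anti-G-CSF, beside 16.9% of all genes tested. Of these calls only that of Oas2 held in all 20 alternatives, and that of Oasl2 held in 13. Oas1a, Oas3 and Oasl2 lost theirs with the brain genes' mean as a covariate and without replicates 9 and 12. Oas2 fell by the most (log2 fold change -1.16 ± 0.20, adjusted p = 5.90e-04), followed by Oas1a (-0.75 ± 0.19, adjusted p = 0.00736), Oasl2 (-0.65 ± 0.20, adjusted p = 0.0255) and Oas3 (-0.41 ± 0.12, adjusted p = 0.0126). Oas3 measured 182, 123, 141 and 128 CPM in the sham libraries, 165, 208, 153 and 176 in the burn libraries and 144, 127, 138 and 119 in the anti-G-CSF libraries. All its anti-G-CSF libraries were below all its burn libraries. Oasl2 measured 112, 60.3, 73.7 and 66.96 CPM in the sham libraries, 84.1, 116, 71.7 and 78.2 in the burn libraries and 58.6, 51.99, 64.6 and 47.3 in the anti-G-CSF libraries. Replicate 1 was nearly as high as the highest burn library, and the anti-G-CSF libraries were below all burn libraries. Oasl1 was the exception (0.22 ± 0.23, adjusted p = 0.468, not passed).

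Of the 7 sensing and editing genes, 3 fell with anti-G-CSF, beside 16.9% of all genes tested. Among these, Ddx58 and Zbp1 lost their calls with the brain genes' mean as a covariate and without replicates 9 and 12. Ddx60, a helicase that belongs to the antiviral response and lies at chr8:61928087-62037701, measured 38.6, 27.4, 36.7 and 31.3 CPM in the sham libraries, 37.7, 44.8, 39.7 and 41.1 in the burn libraries and 16.8, 26.5, 28.9 and 27.3 in the anti-G-CSF libraries. Replicate 9 was the lowest of all libraries. Ddx60 fell with the antibody (log2 fold change -0.71 ± 0.14, adjusted p = 9.91e-04). Ddx58 measured 87.2, 75.1, 74.5 and 70.7 CPM in the sham libraries, 84.6, 98.4, 74.2 and 77.2 in the burn libraries and 55.5, 64.3, 69.9 and 60.9 in the anti-G-CSF libraries. Its anti-G-CSF libraries were below every burn and every sham library (-0.42 ± 0.10, adjusted p = 0.00284). Zbp1 measured 31.2, 17.5, 19.6 and 18.7 CPM in the sham libraries, 29.9, 40.4, 21.8 and 28.8 in the burn libraries and 20.9, 19.3, 18.3 and 15.5 in the anti-G-CSF libraries. Its highest values were in replicates 6 and 1, and it fell with the antibody (-0.71 ± 0.20, adjusted p = 0.0126). Ifih1 (0.01 ± 0.14, adjusted p = 0.972), Eif2ak2 (-0.00 ± 0.10, adjusted p = 0.979), Adar (-0.05 ± 0.08, adjusted p = 0.641) and Dhx58 (LGP2; -0.28 ± 0.12, adjusted p = 0.0789) did not pass.

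Samd9l fell with anti-G-CSF (log2 fold change -0.65 ± 0.11, adjusted p = 1.44e-04). Trim30a, a TRIM protein known to restrain NF-kappaB signalling, measured 156, 125, 136 and 123 CPM in the sham libraries, 164, 196, 137 and 136 in the burn libraries and 92.1, 112, 123 and 108 in the anti-G-CSF libraries. Burn libraries were all above the anti-G-CSF libraries and overlapped the sham range, and Trim30a fell (-0.54 ± 0.12, adjusted p = 0.00187). Its call was lost with the brain genes' mean as a covariate (adjusted p = 0.112). Gbp2 had no overlap between the burn groups and still missed the threshold (-0.47 ± 0.18, adjusted p = 0.0579). Irgm1 (0.36 ± 0.15, adjusted p = 0.0760), Irf7 (0.27 ± 0.16, adjusted p = 0.226) and Stat2 (-0.13 ± 0.09, adjusted p = 0.264) did not pass. Rtp4, a chaperone of receptor transport, had the largest fold change among the members that did not pass (-0.79 ± 0.30, adjusted p = 0.0591), with its burn values spread from 22.7 to 54.2 CPM.

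**Figure D2:**
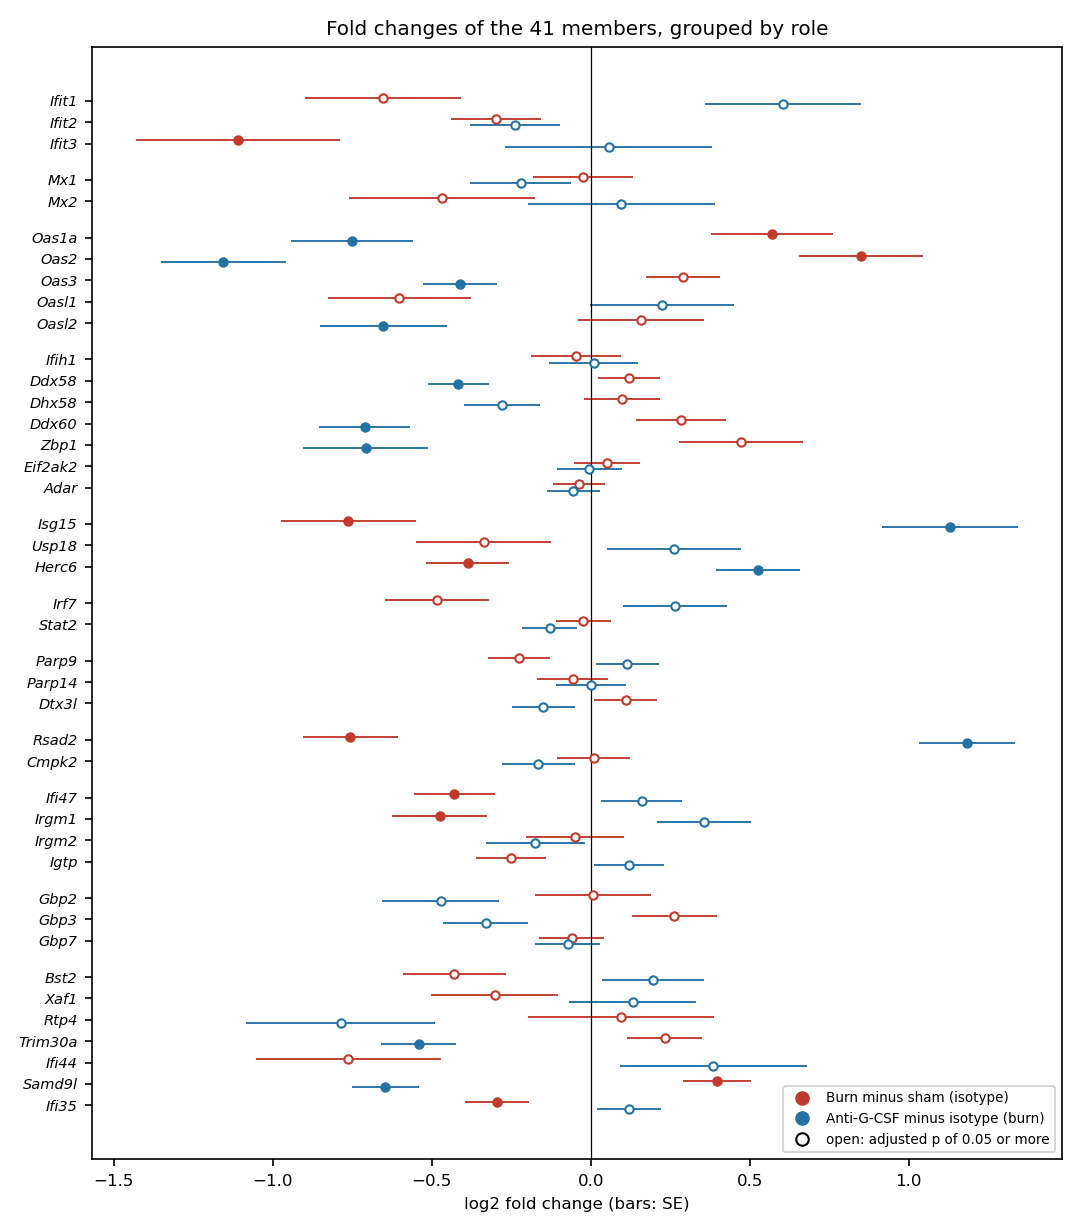
Log2 fold change with SE of the 41 members, grouped by role, for burn minus sham (red) and anti-G-CSF minus isotype after burn (blue), which share the burn libraries. Filled points passed an adjusted p of 0.05, which 10 members did for burn and 12 for the antibody.

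Rsad2, Isg15, Herc6, Oas2, Ddx60 and Samd9l kept their calls between the burn groups in all 20 alternatives. Leaving out replicates 9 and 12, which held the most brain RNA, kept 3 higher and left 4 lower, without Oas1a, Oas3, Oasl2, Ddx58 and Zbp1. With the brain genes' mean as a covariate 9 were higher and 3 lower, and those 5 genes and Trim30a lost their calls. Without replicate 6, 7 were higher and 9 lower, with Ifit1 (0.84, adjusted p = 0.00665), Irgm1 (0.51, adjusted p = 0.00687), Irf7 (0.42, adjusted p = 0.0403) and Bst2 (0.38, adjusted p = 0.0404) added. Without replicate 12, 4 were higher and 8 lower, with Irgm1 (0.46, adjusted p = 0.0294) added and Oasl2 (-0.57, adjusted p = 0.0749) lost. Without replicate 1, a sham library that enters through the estimate of spread, 4 were higher and 11 lower, with Ifit1 (0.60, adjusted p = 0.0347), Gbp2 (-0.47, adjusted p = 0.0241) and Rtp4 (-0.79, adjusted p = 0.0188) added.

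Burned mice given anti-G-CSF differed from sham mice in few members. Ifit2 and Ifit3 were lower, no member was higher, and 39 did not pass. The 2 calls are 4.88% of the members, against 11% of all genes tested, 7.09% higher and 3.91% lower. For the higher direction, 1 member had an unadjusted p under 0.05 by edgeR, and the DESeq2 Wald test called 1. The log2 fold change was negative in 37 of 41 members, with a median of -0.18 against -0.00 over all genes. Without replicate 1 it was negative in 30 of 41, with a median of -0.09, and without replicate 12 in 33, with a median of -0.13. The brain genes summed to 1627 CPM on average in the anti-G-CSF group and 892 CPM in the sham group, and their part in this shift was not tested.

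Ifit2 measured 35.5, 24.1, 27.8 and 22.8 CPM in the sham libraries, 22.3, 28.1, 17.8 and 21.6 in the burn libraries and 19.03, 19.3, 19.5 and 18.2 in the anti-G-CSF libraries. All anti-G-CSF libraries lay within a narrow range below the lowest sham library, and the log2 fold change was -0.54 ± 0.14, adjusted p = 0.0257. Ifit3, whose values are given above, was also below every sham library (-1.05 ± 0.32, adjusted p = 0.0474). Ddx58 had no overlap with sham and did not pass (-0.30 ± 0.10, adjusted p = 0.0565). These are 3 members without overlap, or 7.32%, against 17% of all genes. Rsad2 (0.43 ± 0.15, adjusted p = 0.0778), Isg15 (0.37 ± 0.21, adjusted p = 0.311), Irf7 (-0.22 ± 0.16, adjusted p = 0.456), Stat2 (-0.15 ± 0.09, adjusted p = 0.294), Irgm1 (-0.12 ± 0.15, adjusted p = 0.692), Gbp2 (-0.46 ± 0.18, adjusted p = 0.120) and Adar (-0.09 ± 0.08, adjusted p = 0.554) did not pass. Without replicate 1, Ifit2 gave -0.39, adjusted p = 0.0973 and Ifit3 gave -0.64, adjusted p = 0.170. Without replicate 12, Ifit2 gave -0.52, adjusted p = 0.0778 and Ifit3 gave -1.08, adjusted p = 0.116. Without replicate 6, Ddx58 (-0.30, adjusted p = 0.0296) and Trim30a (-0.31, adjusted p = 0.0475) passed as lower too. Neither IFIT call held without replicate 1, 3, 9 or 12, or with the brain genes' mean as a covariate. The call of Ifit3 was also lost without replicate 2, 4, 5, 8, 10 or 11, with no filter and with library-size scaling. It held in 6 of 20 alternatives and in 2 of the 12 with a library left out, and that of Ifit2 held in 14 and 8. The lower calls numbered 1 without replicate 2, 4, 5, 8 or 10, 3 without replicate 7 or 11 and 4 without replicate 6.

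The members not yet described passed in none of the 3 comparisons. Bst2, the tetherin that holds virus particles at the cell surface, averaged 66.4 ± 12.1, 49.4 ± 12.5 and 56.5 ± 6.48 CPM in the sham, burn and anti-G-CSF groups, with log2 fold changes of -0.43 ± 0.16 after burn and 0.20 ± 0.16 with the antibody. Ifi44, the least abundant member, averaged 4.30 ± 0.991, 2.55 ± 1.04 and 3.31 ± 0.663 CPM. Its log2 fold change after burn was as large as that of Isg15 (-0.76 ± 0.29) with a wider error. Xaf1, an interferon-induced binding partner of the apoptosis inhibitor XIAP, gave log2 fold changes of -0.30 ± 0.20 and 0.13 ± 0.20 in the same comparisons. The Mx GTPase genes gave -0.03 ± 0.16 (Mx1) and -0.47 ± 0.29 (Mx2) after burn. The guanylate-binding protein genes Gbp3 (0.26 ± 0.13) and Gbp7 (-0.06 ± 0.10) also did not pass after burn, nor with the antibody (-0.33 ± 0.13 and -0.07 ± 0.10).

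Side by side, the members fell into 5 patterns over the 2 comparisons that share the burn group. Oas1a, Oas2 and Samd9l were higher after burn and lower with the antibody. Rsad2, Isg15 and Herc6 were lower after burn and higher with the antibody. Ifit3, Ifi47, Irgm1 and Ifi35 were lower after burn and did not pass with the antibody, and Oas3, Oasl2, Ddx58, Ddx60, Zbp1 and Trim30a were lower with the antibody and did not pass after burn. The other 25 members passed in neither comparison, and no direct test of a difference between these patterns was made. Of all genes tested, 21% were called after burn and 34.6% with the antibody. The share of all genes in each pattern was not counted, so the patterns are not shown to be particular to the members.

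Ratios within a library are independent of scaling, and 3 pairs were chosen after their values were seen. Rsad2 to its neighbour Cmpk2 stood at 5.16 to 5.98 in the sham group, 2.83 to 4.04 in the burn group and 6.88 to 10.8 in the anti-G-CSF group. The 3 ranges did not overlap. Isg15 to Oas2 stood at 1.75 to 3.27, at 0.768 to 0.857 and at 2.86 to 5.85, with the burn libraries apart from all others. Irgm1 to Irgm2, close relatives in the same GTPase family, stood at 1.46 to 1.71, at 1.02 to 1.28 and at 1.60 to 1.77. These ratios show unequal change of the paired genes and were given no test.

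Receptor genes for interferon-gamma and interferon-lambda were highest in the burn group, and interferon ligands were barely detected. Of 21 interferon ligand genes, 16 had no count in any library. Ifnb1 had 4 counts in replicate 2 and 0 elsewhere, and Ifng, at 2 to 15 counts per library, was the only ligand tested (-0.79 ± 0.64, adjusted p = 0.447 after burn). Of 14 receptor and JAK-STAT genes, 4 rose after burn and 10 did not pass, beside the 11.1% of all genes that rose and 9.92% that fell. Ifnlr1, a subunit of the interferon-lambda receptor that neutrophils carry, averaged 37.2 ± 4.82, 71.4 ± 3.99 and 27.4 ± 3.25 CPM in the sham, burn and anti-G-CSF groups. It rose after burn (log2 fold change 0.94 ± 0.10, adjusted p = 1.11e-05) and fell with the antibody (-1.38 ± 0.10, adjusted p = 3.88e-08). In the anti-G-CSF group Ifnlr1 was also lower than in sham, and no other gene of this list was called there. Of all genes, 3.91% were lower in that comparison. Ifngr2 (0.54 ± 0.08, adjusted p = 8.71e-05) and Ifngr1 (0.45 ± 0.10, adjusted p = 0.00250), the interferon-gamma receptor, and the kinase gene Tyk2 (0.34 ± 0.07, adjusted p = 0.00321) also rose after burn.

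With anti-G-CSF, 6 of these 14 fell and 8 did not pass, beside the 16.9% of all genes that fell and 17.7% that rose. The same shares over all genes apply to the lists that follow. Besides Ifnlr1 they were Ifngr2 (-0.74 ± 0.08, adjusted p = 1.00e-06), Tyk2 (-0.40 ± 0.07, adjusted p = 5.05e-04), Ifngr1 (-0.42 ± 0.10, adjusted p = 0.00237), Il10rb (-0.40 ± 0.10, adjusted p = 0.00682) and Ifnar2 (-0.32 ± 0.09, adjusted p = 0.00798). Ifnar1 passed in neither comparison (0.05 ± 0.07, adjusted p = 0.714 after burn). Irf9 averaged 119.7 ± 11.1, 115 ± 21.5 and 119 ± 10.5 CPM and passed in none of the 3 comparisons. Of 14 sensors and adaptors, Myd88, Ikbke, Mb21d1, Tmem173 and Samhd1 rose after burn, and Tlr9 and Mavs fell. With the antibody Myd88, Ikbke, Samhd1, Mb21d1 and Tmem173 fell, and the other 9 did not pass. Myd88, the adaptor of Toll-like receptors, averaged 82.2 ± 5.85, 139 ± 22.8 and 71.1 ± 7.01 CPM, with log2 fold changes of 0.76 ± 0.10, adjusted p = 8.04e-05 after burn and -0.96 ± 0.10, adjusted p = 2.18e-06 with the antibody.

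Of 43 tested genes in a list of other interferon-induced genes, 16 fell after burn and 27 did not pass, with a median log2 fold change of -0.34. With anti-G-CSF 11 rose and 6 fell, with a median of 0.18. Ube2l6, the enzyme that hands ISG15 on to its ligase, averaged 783 ± 28.8, 375 ± 47.7 and 891 ± 194 CPM. It fell after burn (-1.06 ± 0.13, adjusted p = 2.65e-05) and rose with the antibody (1.25 ± 0.13, adjusted p = 1.14e-06). The RNase gene Isg20 (-0.996 ± 0.16, adjusted p = 5.16e-04), Pml, the scaffold of nuclear bodies (-0.64 ± 0.09, adjusted p = 1.06e-04), and the GTPase genes Gbp8 (-0.97 ± 0.16, adjusted p = 2.91e-04) and Gbp4 (-0.98 ± 0.16, adjusted p = 3.32e-04) fell after burn too. With the antibody Isg20 (1.221 ± 0.16, adjusted p = 4.74e-05), Pml (0.52 ± 0.09, adjusted p = 2.66e-04) and Gbp8 (0.96 ± 0.16, adjusted p = 1.46e-04) rose, and Trim12a fell (-0.42 ± 0.08, adjusted p = 7.67e-04). Against sham, the anti-G-CSF group had 1 lower gene in this list, Trim12a (-0.32 ± 0.08, adjusted p = 0.0246).

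Marker lists of marrow cells moved with the same comparisons. Of the 14 neutrophil markers in the table, all 14 rose after burn and all 14 fell with anti-G-CSF. In the anti-G-CSF group 13 of the 14 were lower than in sham and none was higher, beside 3.91% of all genes that were lower. Their summed level ran from 44199.6 to 56151 CPM in the sham group, from 81614 to 98593 in the burn group and from 27748 to 36452 in the anti-G-CSF group. The 10 erythroid markers went the other way, with all 10 lower after burn and all 10 higher with the antibody. Their sums ran from 9176 to 9934 CPM, from 4224 to 5903 and from 9089 to 14074, the highest in replicate 9. The sum of the resident macrophage markers, described below, was also highest of all libraries in replicate 9 (1631 CPM), and the neutrophil sum was lowest there (27748 CPM).

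Monocyte markers (9 of 10 higher after burn) summed to 2580 to 3014 CPM in the sham group, 4235 to 5828 in the burn group and 2116 to 3023 in the anti-G-CSF group. All 11 B-lineage markers fell after burn, to 633 to 1045 CPM from 1667 to 1872, and all 11 rose with the antibody, to 1217 to 1939. Plasmacytoid dendritic cells are known as large producers of type I interferon, and 5 of 9 of their markers fell after burn and 5 rose with the antibody (746 to 801, 559 to 672 and 668 to 786 CPM). Resident macrophage markers had 10 of 12 lower after burn and 10 of 12 higher with the antibody (1391 to 1569, 875 to 1109 and 1186 to 1631 CPM), and T and NK markers had 6 of 10 lower after burn (141 to 204, 102 to 152 and 117 to 176 CPM). No marker in these lists was at 0 in any library. Separated groups of 4 give a 2-sided exact permutation p of 0.0286, the smallest this design allows, which was 0.0571 after adjustment over the 30 tests of list sums. The part of these cell lists in the members' differences was not tested.

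**Figure D3:**
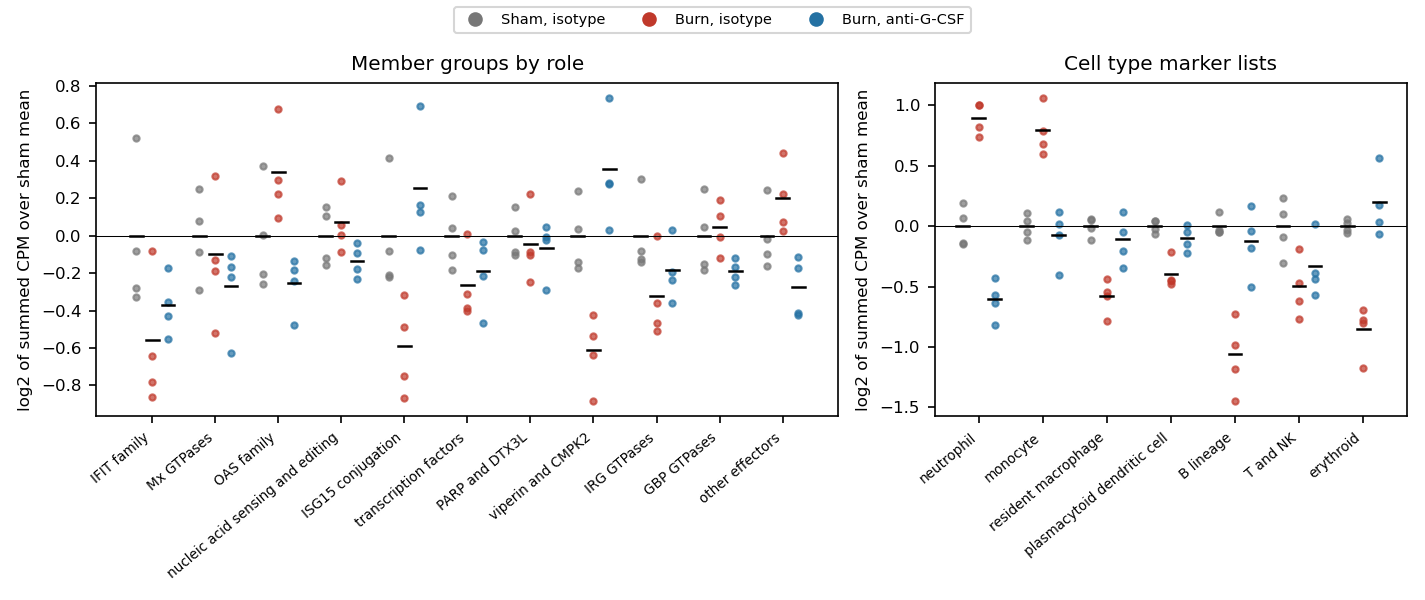
Summed CPM of member groups by role (left) and of cell type marker lists (right) as log2 of the sham mean, 1 point per library with the group mean as a bar. The viperin and ISG15 groups lie lowest in the burn libraries, the OAS family has its highest mean there with sham replicate 1 above 3 of the 4 burn libraries, and the neutrophil and erythroid lists separate the burn group from both others.

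Within each group, most members were high or low together in the same libraries. Replicate 1 was the highest sham library for 37 of 41 members (90.2%), against 29.3% of all genes tested. Replicate 6 was the highest burn library for 38 members (92.7%, all genes 32.4%), and replicate 12 was the lowest anti-G-CSF library for 32 (78.0%, all genes 23.1%). The median member lay 0.32 above its group mean on the log2 scale in replicate 1, 0.31 above it in replicate 6 and at -0.17 in replicate 12.

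A brain score, the 18 brain genes averaged as log2 CPM, was lowest among sham libraries in replicate 1 (4.73), lowest among burn libraries in replicate 6 (4.41) and highest of all in replicate 12 (6.42). The other sham libraries scored 4.87 to 5.06. Replicate 9 had the next highest score (6.10). Its median member lay 0.04 above the mean of its group, a mean that includes replicate 12. Within groups, the slope of expression on this brain score was negative for 40 of 41 members, against 56.2% of all genes. The related lists behaved alike, with negative slopes for 14 of 14 receptor and JAK-STAT genes, 14 of 14 sensors and adaptors and 38 of 43 other interferon-induced genes. It passed the test for 9 members, all falling (22%), among them Mx1, Mx2, Oas1a and Ddx58, while 1.3% of all genes fell and 9.15% rose. In the related lists 21.4%, 28.6% and 20.9% fell with the score. Negative slopes were found for 14 of 14 neutrophil, 10 of 10 T and NK, 9 of 10 monocyte, 9 of 12 resident macrophage, 7 of 10 erythroid, 6 of 9 plasmacytoid dendritic cell and 6 of 11 B-lineage markers. The part of other tissue in the within-group pattern was not tested.

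**Figure D4:**
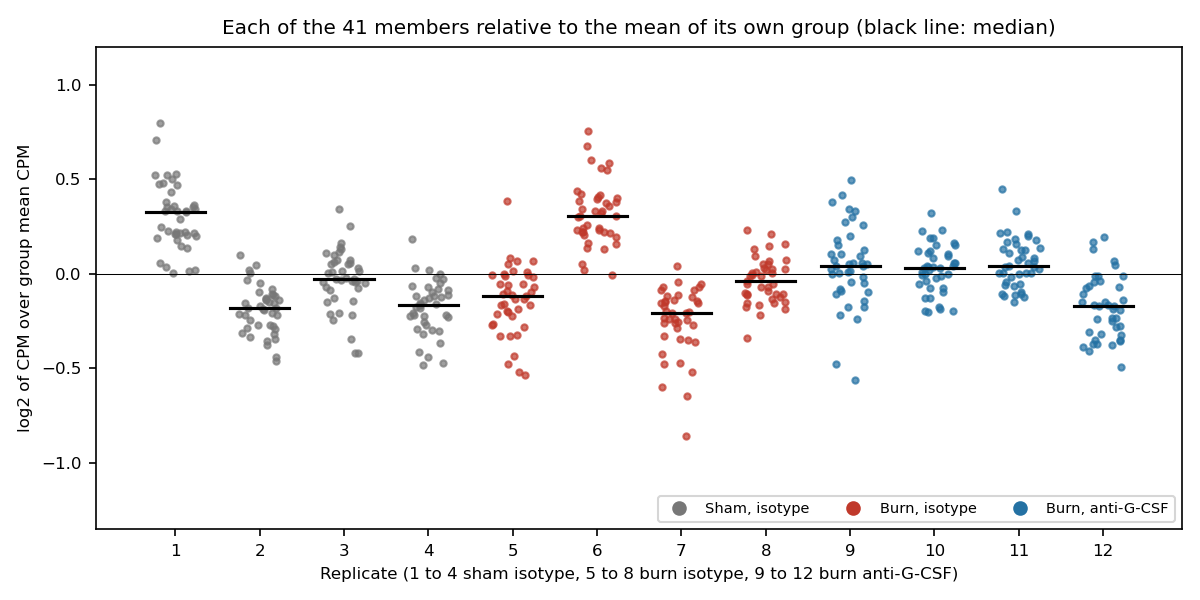
Log2 of each member's CPM over the mean of its own group, in each of the 12 libraries, with the median of the 41 members as a black line. The medians stand out at 0.32 in replicate 1, 0.31 in replicate 6 and -0.17 in replicate 12.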

How the data were processed

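RNA of whole bone marrow was measured in 12 libraries. Polyadenylated RNA was selected and libraries were made with a directional kit, per the labels' protocols. The authors deposited raw counts, 1 column per library. The submitters' processing notes list TopHat2 and mm10. How reads were counted, on which strand and with which annotation is not given. Starts in the table count from 0 and were shifted to count from 1.

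Counts were filtered with filterByExpr, scaled with TMM and fitted with edgeR 4.0.16 in R 4.3.3 by a robust quasi-likelihood model with 1 mean per group and 9 residual degrees of freedom. Tests were 2-sided with Benjamini-Hochberg adjustment at 0.05. Dividing a log2 fold change by the root of its F gave the SE. The fit was tested on simulated data.

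The members and the lists were chosen with earlier results of these data known. All members may be named, and values of every library are given for members past the threshold and for Isg15, Irf7, Stat2, Irgm1, Gbp2 and Adar. From each pathway list, up to 5 genes with the smallest p in a comparison are named, with Irf9, Ifnb1, Ifng and the receptors whatever their result. Of the genes named whatever their result, 1 is not reported here. Tmem173 and Samhd1 after burn were named in addition, after their values were seen. Exon lengths came from GENCODE M21 and promoters from RefSeq for GRCm38.p6. Alternatives were DESeq2 size factors, scaling by library size, no filter, CPM above 1 in 4 libraries, the DESeq2 1.42.0 Wald test, a fit of just the groups compared, leaving out each library and the brain score as a covariate. Leaving out replicates 9 and 12 was chosen after seeing the data.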

Additional observations from a re-analysis of the deposited data

Results flagged for a closer look

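In 7 of the 123 sets of 4 libraries tested (41 members in 3 groups), 1 library lay far from the other 3 by Dixon's criterion, and chance flags about 1 in 20 such sets. In replicate 1 of the sham group, Isg15 stood at 144 CPM against 91.4 to 96.6 in the other sham libraries, Ifit3 at 20.9 against 8.56 to 9.49, Mx2 at 6.11 against 4.20 to 4.51, Zbp1 at 31.2 against 17.5 to 19.6 and Rtp4 at 54.4 against 24.0 to 28.6. In replicate 6 of the burn group, Irgm1 stood at 71.2 CPM against 47.7 to 50.6. In replicate 12 of the anti-G-CSF group, Oasl1 stood at 10.1 CPM against 14.3 to 15.1. Of the 7 values, 5 come from replicate 1, so they are not independent of each other.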

How the results depend on the processing

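No member reversed direction while called in any alternative run. After burn, the 3 higher calls became 7 with the brain score as a covariate and 1 to 5 with a library left out. The 7 lower calls became 15 with library-size scaling, 12 by the DESeq2 Wald test, 5 with the brain score as a covariate and 1 to 14 with a library left out. Between the burn groups, the 3 higher calls became 11 with library-size scaling, 9 with the brain covariate and 3 to 7 with a library left out. The 9 lower calls became 3 with the brain covariate, 4 without replicates 9 and 12, and 8 to 12 with a library left out. For anti-G-CSF against sham, the 0 higher calls became 1 by DESeq2. The 2 lower calls became 1 with library-size scaling, 1 with no filter, 5 by DESeq2, 0 with the brain covariate, 0 without replicates 9 and 12, and 0 to 4 with a library left out. Library-size scaling moved the median of all genes to -0.10 after burn, 0.26 between the burn groups and 0.08 against sham. The cause of these shifts was not tested. No paired analysis was possible because the labels number the libraries 1 to 12 and share no number between groups. The fewest reads of any members were 38 in a library for Ifi44 and 43 for Mx2, each with an SE of 0.29 after burn; the median SE over the members was 0.14, and Ifit3 had the widest at 0.32.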
